A study of Mus musculus with 160 samples.

Results

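Interferon-response genes are genes that cells switch on after they sense an interferon or a viral nucleic acid. The members described here were 44 genes given by name as a list, and all 44 had a row in the table of 23420 genes. They were selected on their known response to interferon after the differences in mean level between day-14 and day-17 cells of these data had been seen, so the values of that contrast chose them in part and are given as a description. The cells came from mouse pluripotent stem cells of the C57BL/6 strain that carried a doxycycline-inducible Runx1-p2a-Hoxa9 cassette in Rosa26, a design meant to direct differentiation toward T lineage progenitors. Single cells were sequenced in 4 groups. These were 65 induced hemogenic endothelial progenitors (iHECs) and 21, 18 and 56 induced hematopoietic progenitor cells (iHPCs) from days 14, 17 and 21 of induction, which are days 3, 6 and 10 of maturation on OP9-DL1 stromal feeder cells in conditioned medium with doxycycline. By the study's methods doxycycline was also given before the iHECs were sorted. All groups therefore shared the cassette, the strain and doxycycline. No group without the cassette and no group given an interferon was analysed here.

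The sort differed between groups. By the study's methods the gate for iHECs was CD31+CD41lowCD45-c-kit+CD201high, the gate at days 14 and 17 was CD45+Lin-, and that at day 21 was Ter119-CD45+c-kit+CD127+, so that day and gate cannot be told apart between iHECs and day 14 or between days 17 and 21. Feeder cells and a change of medium also came between iHECs and day 14 and cannot be told apart from these. The labels name no separate culture for any cell. Each group was therefore counted as 1 sample, errors are the SD between cells, and no test was possible. The deposited values are TPM, transcript levels scaled by gene length and by the total of the cell, and levels are given as log2(TPM + 1). The number of reads behind a value is unknown. A cell had between 3103 and 9658 genes above 1 TPM, with medians of 4926 in iHECs and 8200, 8101 and 6695.5 at days 14, 17 and 21.

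Interferons reach the cell through paired receptors bound to Janus kinases. Type I interferons signal mainly through a complex with STAT2 and IRF9 that binds the interferon-stimulated response element, and interferon gamma mainly through GAS elements. The genes switched on encode sensors of foreign RNA and DNA, enzymes that degrade or modify RNA, the ubiquitin-like protein ISG15, GTPases that act on pathogens or their vacuoles, and feedback factors. Stem and progenitor cells of blood are known to carry some of these transcripts without infection.

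Cdh5, an endothelial cadherin, passed 1 TPM in 63 of 65 iHECs but in no iHPC, and Coro1a, a leukocyte actin regulator, in all iHPCs. Some libraries go against their labels or resemble each other. Ptprc, which encodes CD45, was at or below 1 TPM in 4 iHPC libraries although the sort was for CD45, in 2 day-14, 1 day-17 and 1 day-21 cell. The day-17 library had Bex1 at 4305 and Krt18 at 2177 TPM, against medians of 6.19 and 4.60 TPM over the 16 day-17 cells that did not stand apart, and another day-17 library resembled it (r 0.90). These 5 libraries are counted, and values without them are given where they touch a result. In addition, 9 pairs of cells had profiles with r of 0.959 to 0.994, with medians between cells of a group of 0.66 to 0.90, namely 4 pairs of iHECs, 4 of day-14 and 1 of day-17 cells. With each pair merged into 1 cell, the difference in member mean from day 14 to day 17 was 3.53. Whether a pair differed by more than sampling noise could not be assessed without read counts.

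The interferon-stimulated response element was searched around the starts of the member genes. Because the list was chosen on known response to interferon, a high share with the element was favoured in advance. The shares describe the list and are no independent support for it in these data. A promoter window from 250 bases before to 50 after the start, from RefSeq on GRCm38.p6, was given for 34 of the 44 genes. Mx1, Mx2, Oas2, Parp9, Parp14, Dhx58, Usp18, Rtp4, Ifi27l1 and Zbp1 had none. The core of the element was searched as GAAANNGAAA on either strand (TTTCNNTTTC on the other), with overlapping matches counted. It was found in 17 of 34 members (50%), against 1079 of all 27025 genes with a window (3.99%). The GAS core, searched as TTCNNNGAA, which reads the same on both strands, was found in 8 of 34 members (23.5%) and in 2582 of all genes (9.55%). A match describes letters, not a bound site. Of 43 windows for members, 37 had their bases after the start in an annotated transcript read in the same direction.

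The sequences before the start are shown for Isg15 and Oas1a, the pair with the largest differences between days 14 and 17 among members with a core before the start, with the core in capitals. In Isg15 overlapping cores ran from base -78 to base -57. In Oas1a they ran from base -20 to base -5.
Isg15, chr4:156200819-156201018, minus strand: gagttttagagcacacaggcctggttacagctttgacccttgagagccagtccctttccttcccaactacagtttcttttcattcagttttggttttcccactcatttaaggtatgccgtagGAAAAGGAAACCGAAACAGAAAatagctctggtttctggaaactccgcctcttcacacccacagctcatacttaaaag
Oas1a, chr5:120907526-120907725, minus strand: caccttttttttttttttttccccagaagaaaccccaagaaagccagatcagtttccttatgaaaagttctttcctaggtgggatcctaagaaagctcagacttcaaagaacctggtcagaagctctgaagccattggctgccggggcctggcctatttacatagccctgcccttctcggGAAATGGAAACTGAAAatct
The next members in that order, each with the bases around its core, show the core on either strand. Bst2, which falls between Irgm1 and Igtp, is not shown because the bases after the start of its window were not in an annotated transcript, nor is Ddx58, whose core lay after the start. Trim30a and Gbp2 held it on the strand opposite to the gene, and Oas3, Irgm1 and Igtp on the strand of the gene.
Trim30a, chr7:104465205-104465244, minus strand: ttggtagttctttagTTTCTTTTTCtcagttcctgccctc
Gbp2, chr3:142620589-142620628, plus strand: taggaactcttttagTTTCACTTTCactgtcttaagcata
Oas3, chr5:120777710-120777749, minus strand: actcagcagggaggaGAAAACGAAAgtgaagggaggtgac
Irgm1, chr11:48871421-48871465, minus strand: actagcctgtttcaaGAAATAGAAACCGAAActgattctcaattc
Igtp, chr11:58199507-58199546, plus strand: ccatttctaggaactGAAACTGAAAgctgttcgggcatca
Members without this core in their window included Irf7 and Isg20, whose differences between days 14 and 17 were 6.89 and 6.23. Many members lay side by side in the genome, since 17 of the 43 with a GENCODE position on GRCm38 fell in 7 runs of neighbours no more than 200 kb apart. Oas2, Oas3 and Oas1a lay together at chr5:120730333-120907521, Ifit2, Ifit3 and Ifit1 at chr19:34550694-34650009, and Rsad2 and Cmpk2 at chr12:26442746-26479837.

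The members were highest at day 17. The mean over the 44 genes was 0.83 ± 0.32 for the iHECs (SD between cells, n = 65), then 1.14 ± 0.29 in day-14 cells (n = 21), 4.73 ± 1.02 in day-17 cells (n = 18) and 3.23 ± 1.01 in day-21 cells (n = 56). In the order lowest, median and highest cell, these means were 0.23, 0.85 and 1.93 in iHECs and 0.42, 1.14 and 1.73 at day 14. They were 1.53, 4.83 and 5.92 at day 17 and 1.44, 3.16 and 5.50 at day 21. All but 1 of the day-17 cells, 17 of 18, lay above every day-14 cell. A median iHEC had 7 of the 44 genes above 1 TPM, a median day-14 cell 12, a median day-17 cell 37 and a median day-21 cell 24.

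**Figure D1:**
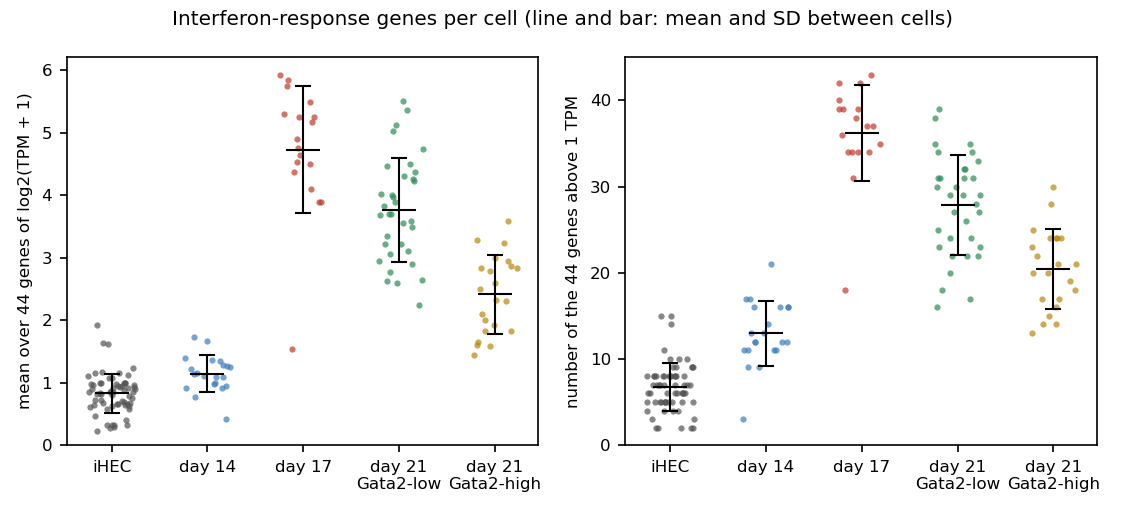
Each point is a cell; the left axis gives the mean of log2(TPM + 1) over the 44 genes and the right axis the number of these genes above 1 TPM, with the mean and SD between cells as line and bar. Cells of day 17 centre on 4.73, against 1.14 at day 14, and 1 day-17 cell lies at 1.53.

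From iHECs to day 14 the mean over the members was 0.32 higher, with differences above 0 in 28 members and below 0 in 12. The median difference was 0.93 over the 9674 genes that passed 1 TPM in more than 30 of the cells. Differences are therefore also given relative to that median, and a gene is counted as higher or lower where its relative difference was at least 1 on the log2 scale. This filter on low values kept 36 of the 44 genes, and Ifit1, Ifit2, Ifit3, Mx1, Mx2, Oasl1, Ddx60 and Ifi44 were below it. Of the 36, 4 were higher at day 14 (27.3% of all genes above the filter were) and 5 were lower (24.4% of all). Without the 5 libraries named above, 4 were higher and 7 lower. Day-14 values had part in the choice of the list, which favours genes low at day 14, so nothing is read from these counts.

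The 4 higher genes were Irf9 and 3 GTPases. Irgm1, an immunity-related GTPase of the vacuole and autophagy pathways, passed 1 TPM in 13 of 65 iHECs and in 19 of 21 cells at day 14, with means of 1.03 ± 2.28 and 4.13 ± 1.85. Igtp, of the same family, went from 14 of 65 cells to 17 of 21, and Gbp3, a guanylate-binding protein, from 1 of 65 to 13 of 21. Irf9, the DNA-binding partner of STAT2, passed 1 TPM in 10 of 65 iHECs and in 17 of 21 cells at day 14, a difference of 2.28. These 4 genes passed 1 TPM in most day-14 cells, but were not alone in this. Bst2, Ifi35 and Trim25 passed it in 20 of 21 cells each, Lgals3bp in 16, Adar in 13 and Dtx3l in 11.

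The 5 lower genes were Rsad2, Bst2, Ddx58, Usp18 and Xaf1. Rsad2 encodes viperin, a radical SAM enzyme that makes a chain-terminating nucleotide. It passed 1 TPM in 30 of 65 iHECs (46.2%, exact 95% interval 33.7 to 59), reached 369 TPM there, and passed 1 TPM in 0 of 21 cells at day 14, which allows a share of up to 14.3%. Its neighbour Cmpk2, which supplies the nucleotide substrate, passed 1 TPM in 5 of 65 iHECs and in 7 of 21 cells at day 14. Ddx58, the RNA sensor RIG-I, passed 1 TPM in 27 of 65 iHECs and in 3 of 21 cells at day 14, and Usp18, the protease that removes ISG15 and restrains the type I receptor, in 20 of 65 and 5 of 21.

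Bst2, which encodes tetherin, was the member listed most widely in iHECs, in 63 of 65 cells, with a lowest, median and highest value of 0, 244 and 749 TPM. Ifi35, Trim25 and Lgals3bp were above 1 TPM in 48, 43 and 37 of the 65 iHECs, and these were, with Bst2, the 4 members above 1 TPM in at least 50% of them. By contrast 12 members were above 1 TPM in no iHEC, which allows a share of up to 4.62% each. They were Ifit1, Mx1, Mx2, Oasl1, Oas1a, Oas2, Oas3, Ddx60, Parp12, Irf7, Ifi44 and Sp100.

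From day 14 to day 17 the mean over the members was 3.58 higher, with a median difference of 0.28 over all genes above the filter, and 35 of the 36 members above the filter were higher (9.03% of all genes above the filter were) and 0 were lower (7.09% of all). Nothing is read from these counts, because the list was chosen with this contrast in view. At day 17, 14 members were above 1 TPM in all 18 cells and 41 in at least 50% of them, while Ifi44 was above 1 TPM in none.

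**Figure D2:**
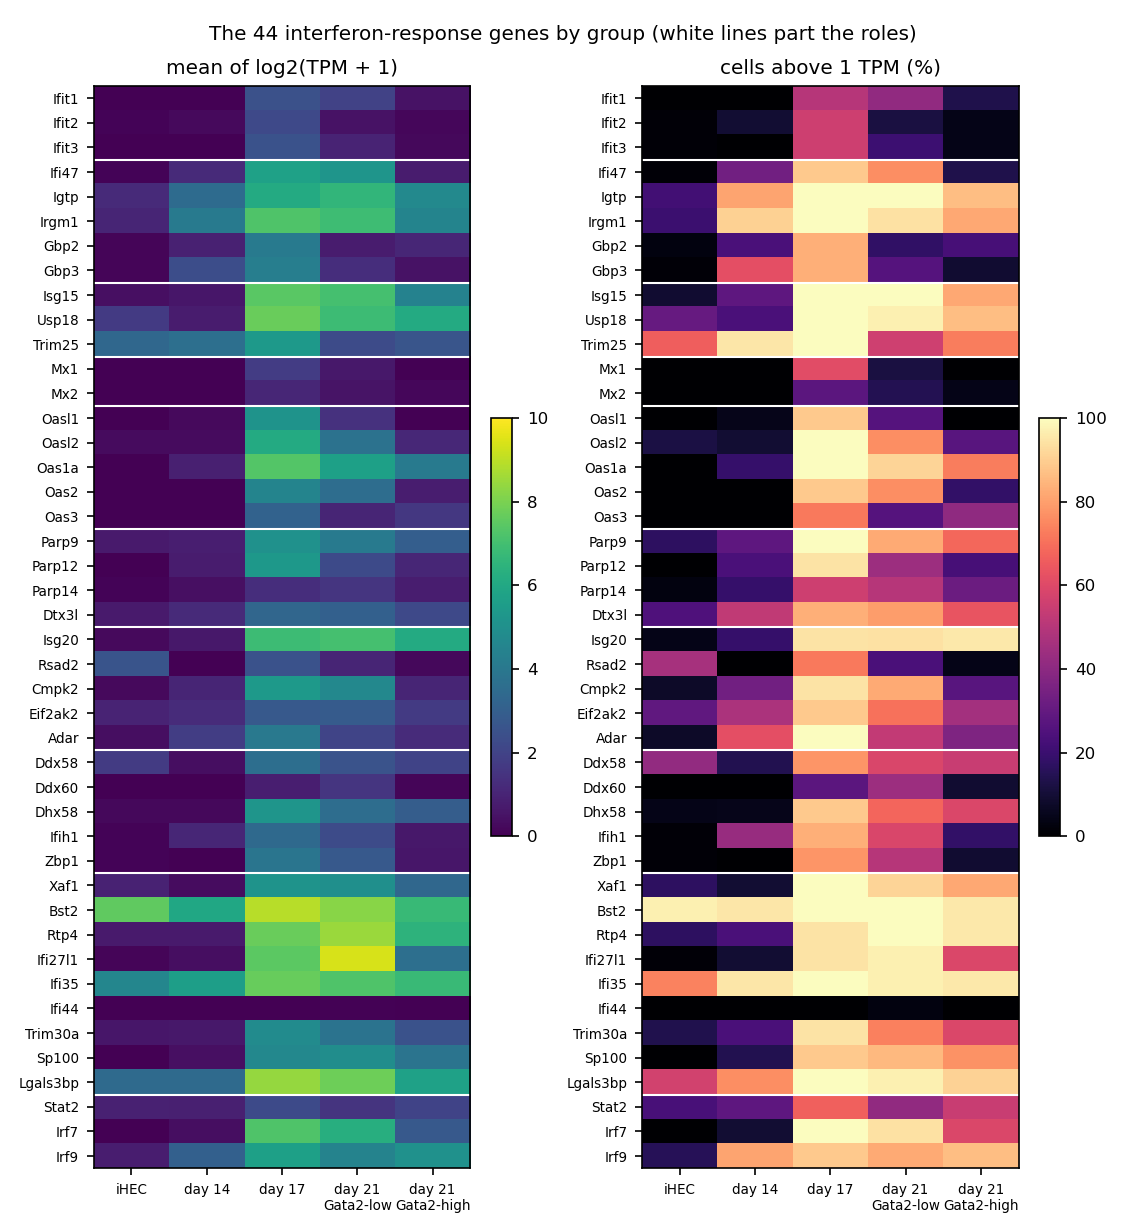
Rows are the 44 genes parted by role; columns are the groups, with day 21 split by Gata2. The left panel gives the mean of log2(TPM + 1) and the right panel the percent of cells above 1 TPM. Day 17 is the brightest column for most rows, and Rsad2, Ddx58, Bst2 and Trim25 are also seen in iHECs.

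Among the transcription factors, Irf7, the factor that amplifies type I interferon production, was listed at 0 in every iHEC. At day 14 its lowest, median and highest values were 0, 0 and 17.2 TPM, and at day 17 they were 1.03, 242 and 532 TPM. Irf7 was above 1 TPM in 2 of 21 and 18 of 18 cells, and the ranges overlapped through the lowest day-17 cell. Irf9 differed less, from 3.06 ± 1.80 to 5.70 ± 1.97. Stat2 differed by 1.34, and its day-17 values ran from 0 over a median of 4.83 to 56.3 TPM, so that day-17 cells overlapped day-14 cells widely.

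The ISG15 system showed some of the widest gaps. Isg15 had a lowest, median and highest value of 0, 0 and 4.34 TPM at day 14 and of 23.3, 254 and 510 TPM at day 17, without overlap. Usp18 had 0, 0 and 33.3 TPM at day 14 and 11.7, 300 and 609 TPM at day 17, a difference of 6.92 with some overlap. Trim25, a ubiquitin ligase that also activates RIG-I, was already above 1 TPM in 20 of 21 day-14 cells and differed by 1.77.

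Ifi27l1 and Rtp4 had the 2 largest differences among the members, followed by Usp18, Irf7 and Isg15. Ifi27l1, of the ISG12 family of mitochondrial and nuclear membrane proteins, went from 0, 0 and 14.4 TPM at day 14 to 0.546, 259 and 635 TPM at day 17, a difference of 7.09. Rtp4, a receptor transporter protein that dampens the type I response, went from 0.71 ± 1.64 to 7.70 ± 1.98, a difference of 6.99. Isg20, an exonuclease that degrades RNA, went from 0.64 ± 1.34 to 6.87 ± 2.22. Lgals3bp, a secreted galectin-binding glycoprotein, reached a median of 471 TPM and Bst2 one of 542 TPM at day 17, and these were the highest medians among the 44.

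The OAS family makes or relates to the 2′-5′ oligoadenylate signal that switches on RNase L. Oas1a was above 1 TPM in 4 of 21 day-14 cells and 18 of 18 day-17 cells, with a mean of 7.34 ± 1.01 at day 17. Oas2 and Oas3 were above 1 TPM in no day-14 cell and in 16 and 13 of the 18 day-17 cells. Oasl2, which lies beside Oasl1 on chromosome 5, was above 1 TPM in 2 of 21 and 18 of 18 cells, and Oasl1, a translational inhibitor of Irf7, in 1 of 21 and 16 of 18.

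The classic targets of the IFIT and Mx families were low even at day 17. Ifit1, Ifit2 and Ifit3, which bind foreign RNA, were above 1 TPM in 9, 10 and 10 of 18 day-17 cells, with highest values of 71.8, 26.9 and 57.2 TPM. Mx1 and Mx2, of a family of dynamin-like GTPases, were above 1 TPM in 11 and 5 of 18 cells. GENCODE lists Mx2 as a polymorphic pseudogene, and a working protein cannot be assumed from these transcript levels for Mx2 or for Mx1. Ddx60 was above 1 TPM in 5 cells, and Ifi44 in 0, which allows a share of up to 16.7%. In contrast the sensors Dhx58, Ifih1, Zbp1 and Ddx58 were above 1 TPM in 16, 15, 14 and 14 of 18 cells, and Parp9, an ADP-ribosyltransferase-like partner of Dtx3l, in all 18.

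**Figure D3:**
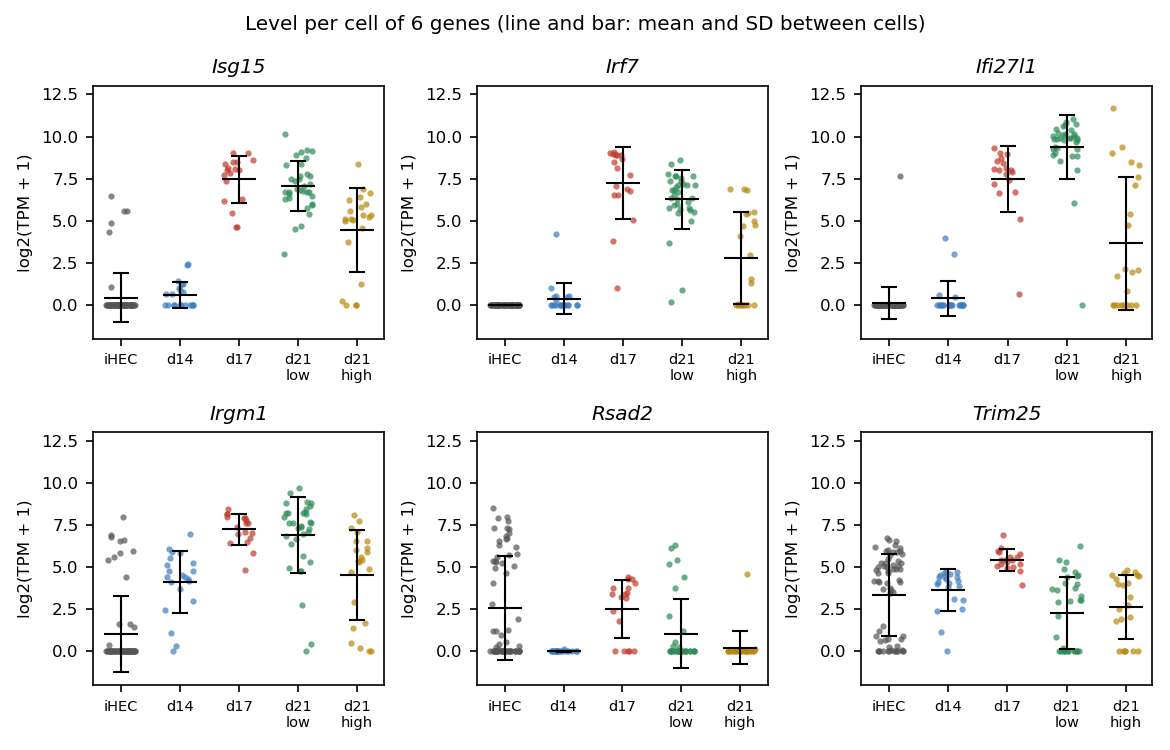
Each point is a cell, with log2(TPM + 1) on the vertical axis and the mean and SD between cells as line and bar; d21 low and high are day-21 cells below and at or above 31 TPM of Gata2. Isg15, Irf7 and Ifi27l1 have medians of 0 in iHECs and at day 14, with single cells above, Irgm1 is above 1 TPM in 19 of 21 day-14 cells, and Rsad2 in 30 of 65 iHECs and no day-14 cell.

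The remaining members were spread between these. The GTPases already listed in most day-14 cells, Irgm1, Igtp and Gbp3, had day-17 means of 7.25 ± 0.92, 6.12 ± 1.20 and 4.29 ± 2.12, and differed by 3.12, 2.63 and 1.94. Ifi47 and Gbp2, of the same families, differed by 4.51 and 3.16 and went from 7 and 5 of 21 cells above 1 TPM to 16 and 15 of 18. Among RNA and nucleotide enzymes Cmpk2 went from 1.04 ± 1.45 to 5.36 ± 1.58, and Adar, which edits adenosine in double-stranded RNA, from 1.82 ± 1.56 to 4.03 ± 1.37. Eif2ak2, the kinase PKR that halts translation, was above 1 TPM in 10 of 21 and 16 of 18 cells. Rsad2, above 1 TPM in no day-14 cell, was above it in 13 of 18 day-17 cells with a highest value of 20.1 TPM, below the 369 TPM reached in iHECs. Xaf1, a pro-apoptotic factor, Trim30a, Sp100 and Ifi35 were above 1 TPM in 18, 17, 16 and 18 of 18 cells, and Parp12, Dtx3l and Parp14 in 17, 15 and 10. The smallest differences were in Ifi44 (0.00), Ddx60 (0.83), Parp14 (0.91), Mx2 (1.06) and Stat2.

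The day-17 values are taken from few cells, and the libraries that stand apart touch them. Leaving out those 5 libraries gave a day-17 mean of 4.96 ± 0.64 (n = 16) with a lowest cell of 3.88, above the highest day-14 cell at 1.73, a difference of 3.79 and 33 members higher. The mean over 9 stromal markers, which feeder cells would carry, was 0.52 at day 14 (range 0.017 to 1.19) and 0.95 at day 17 (range 0.064 to 2.47), and Col3a1, Postn, Dcn and Lum were above 1 TPM in no day-17 cell. Col1a1 and Pdgfra were above it in 2 day-17 cells each and Col1a2 in 1. Sparc passed it in 12 of the 21 cells at day 14 and 14 of the 18 at day 17, with means of 2.61 and 2.68, and Pdgfrb in 10 and 16, with means of 1.60 ± 1.65 and 4.96 ± 2.02. Of these 2 markers above the filter, Pdgfrb counted as higher at day 17. The mean over 7 neutrophil, monocyte and macrophage markers was 2.28 at day 14 (range 0 to 4.14) and 1.16 at day 17 (range 0 to 6.49), with S100a8 and S100a9 above 1 TPM in no cell of either day. Csf1r, Mpo and Elane passed 1 TPM in 19, 17 and 12 of the cells at day 14 and in 5, 4 and 4 at day 17, Lyz2 in 8 and 8, and Ly6c2 in 1 and 6. The part of these cell types in the member values was not tested. Day-17 cells with Ccr9, a thymus-homing receptor, above 1 TPM (n = 11) had a member mean of 5.19 ± 0.52, and the other 7 cells 4.0 ± 1.22, or 4.48 ± 0.66 over the 5 of these that did not stand apart.

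At day 21 the mean over members was 1.49 lower than at day 17, while the median difference over all genes above the filter was -0.74 and the median number of genes above 1 TPM was 6695.5 against 8101. Of the 36 members, 16 were lower (13.1% of all genes above the filter were) and 0 were higher (10.3% of all). Day-17 values had part in the choice of the list, which favours lower values at day 21, so nothing is read from these counts. Without the 5 libraries the difference in mean was -1.70 and 18 members were lower, and relative to the median over all genes it was -0.996, against -0.757 with them. The part of the lower number of genes per cell and of the other sort gate in this was not tested.

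The members lower by most were Oasl1 (by 4.29), Parp12 (by 3.56), Oasl2 (by 3.37), Gbp3 (by 3.31) and Gbp2 (by 3.20). Oasl1 went from 16 of 18 cells above 1 TPM to 9 of 56 and Parp12, a mono-ADP-ribosyltransferase, from 17 of 18 to 20 of 56. Gbp2 and Gbp3 were above 1 TPM in 15 of 18 cells each at day 17 and in 11 of 56 each at day 21. Trim25 was above 1 TPM in 18 of 18 and 35 of 56 cells. All 4 OAS family members above the filter were lower (13.1% of all genes above the filter were). Nothing is read from this count either, since day-17 values had part in the choice of the list.

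Other members had a mean over all day-21 cells near that at day 17, while the median difference over all genes above the filter was -0.74. Rtp4 was 7.70 ± 1.98 at day 17 and 7.69 ± 2.05 at day 21, above 1 TPM in 55 of 56 day-21 cells, and its median was 309 and 298 TPM. Isg20 (6.87 and 6.67), Sp100, a nuclear body protein (4.67 and 4.49), and Igtp (6.12 and 5.84) were also within 1 SD between cells. These means join unlike day-21 cells, split below by Gata2. Rtp4 was 8.49 and Igtp 6.59 in Gata2-low cells, against 6.46 and 4.69 in Gata2-high cells. Isg20 and Sp100 were also higher in Gata2-low cells. Ddx60 was the member with the largest positive difference, of 0.16.

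Day-21 cells were further divided by Gata2, a transcription factor of early progenitors and mast cells. The 22 cells at or above 31 TPM lay at 66 TPM or more and the 34 others at 9.18 TPM or less, so that no cell was near the limit. The mean over members was 2.41 ± 0.63 in Gata2-high cells and 3.76 ± 0.83 in Gata2-low cells. In the order lowest, median and highest, the values were 1.44, 2.41 and 3.59 against 2.23, 3.70 and 5.50, and 19 of the 34 Gata2-low cells lay above every Gata2-high cell. Of the 36 members, 21 were lower in Gata2-high cells (10.2% of all genes above the filter were) and 0 were higher (13% of all). Some of these passed the filter only with Gata2-low cells counted. Oas2 passed 1 TPM in 46 cells, 26 of them Gata2-low, and Zbp1 in 34, 17 of them Gata2-low. Nothing is therefore read from these counts. The median number of genes above 1 TPM was 6665.5 and 6769.5. Set against the same day-17 cells, the member mean differed by -0.96 in Gata2-low cells and by -2.32 in Gata2-high cells, while the median over all genes above the filter differed by -0.74 and -0.73, so the difference of day 21 as a whole joins 2 unequal ones.

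**Figure D4:**
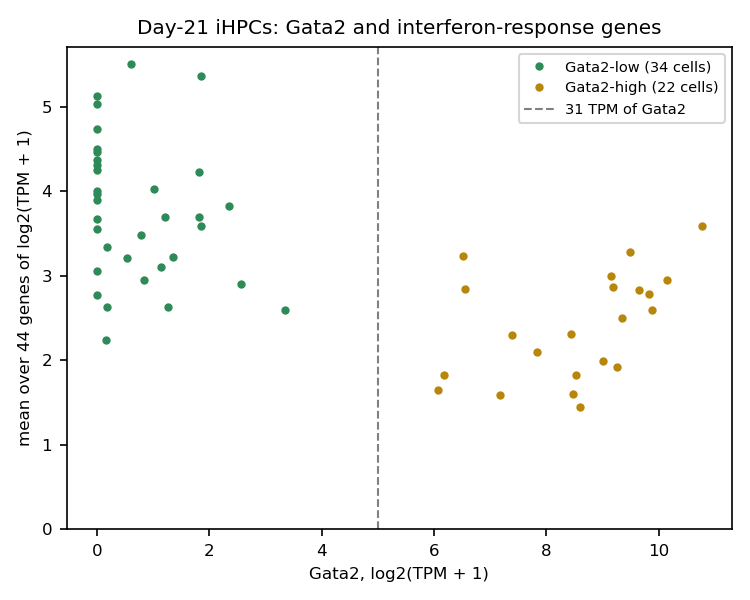
Each point is a day-21 iHPC, with Gata2 as log2(TPM + 1) on the horizontal axis and the mean over the 44 genes on the vertical axis; the dashed line marks 31 TPM of Gata2. Cells to the right centre on 2.41 and cells to the left on 3.76, and their ranges overlap.

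The members lower by most in Gata2-high cells were Ifi27l1, Ifi47, Cmpk2, Irf7 and Oas2. Ifi27l1 had a lowest, median and highest value of 0, 3.04 and 3275 TPM in Gata2-high cells and of 0, 938 and 2062 TPM in Gata2-low cells, and was above 1 TPM in 13 of 22 and 33 of 34 of them. Its mean in Gata2-low cells, 9.39 ± 1.91, was 1.92 above that of day-17 cells. Ifi47, an immunity-related GTPase, was above 1 TPM in 3 of 22 and 26 of 34 cells, Cmpk2 in 6 of 22 and 28 of 34, and Irf7 in 13 of 22 and 32 of 34. Oas2 was above 1 TPM in 4 of 22 and 26 of 34 cells.

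Members did not all follow this order. Irf9 and Oas3 were 0.57 higher, Stat2 0.53, Trim25 0.36 and Gbp2 0.30 higher in Gata2-high cells, each under its own SD between cells, and these were the 5 members above 0. Usp18 (6.10 and 6.84) and Isg20 (6.11 and 7.04) differed by less than 1 on the log2 scale. Bst2, Isg15, Rtp4 and Igtp were above 1 TPM in all 34 Gata2-low cells. Mx1, Oasl1 and Ifi44 were above 1 TPM in none of the 22 Gata2-high cells, which allows a share of up to 13.6%.

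Markers of other cell types moved with the split. The mean over 6 mast cell markers was 7.27 ± 1.04 in Gata2-high cells and 2.85 ± 0.70 in Gata2-low cells, with ranges of 3.89 to 8.38 and 1.12 to 4.08, and Tpsb2 was above 1 TPM in neither. The mean over 6 T lymphoid markers was 0.31 ± 0.46 and 2.95 ± 1.39, with ranges of 0 to 1.57 and 0.57 to 5.59. All 3 T lymphoid markers above the filter were lower in Gata2-high cells (10.2% of all genes above the filter were). All 3 such mast cell markers were higher (13% of all). Cd3g passed 1 TPM in 31 cells, Gata2-low cells among them, so it passed the filter only with that group. Nothing is read from these counts. The part of cell type in the member values was not tested.

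Ligands were almost unlisted. Of 16 type I interferon genes in the table only Ifne, in 5 iHECs, and Ifnk, in 2 day-21 cells, were above 1 TPM in any cell, and neither was in a day-14 or day-17 cell. Ifng, Ifnl2 and Ifnl3 were listed at 0 in all 160 cells, which allows a share of up to 1.88%. The feeder cells and the conditioned medium were not measured. Plasmacytoid dendritic cells make much type I interferon. Of 4 markers of these cells, Siglech and Klk1 were above 1 TPM in no cell and Pacsin1 in 4 day-21 cells. The fourth, Cox6a2, was above 1 TPM in 1 iHEC and in 16, 13 and 13 cells at days 14, 17 and 21, with means of 3.11 ± 2.21 at day 14 and 3.78 ± 2.87 at day 17. The part of such cells in the member values was not tested.

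Receptor genes were listed in all groups. Among 65 iHECs, 57 had Ifnar1 above 1 TPM, as did 19 of 21 cells at day 14, all 18 at day 17 and 39 of 56 at day 21, with means of 4.74, 3.48, 4.49 and 2.66. Ifnar2, its partner, was above 1 TPM in 30, 20, 18 and 55 cells, with means of 2.53, 5.84, 7.13 and 6.25. Ifngr1 and Ifngr2, the pair for interferon gamma, differed in opposite ways by Gata2, as Ifngr1 was 3.25 in Gata2-high and 6.21 in Gata2-low cells and Ifngr2 was 5.37 and 2.38. Ifnlr1 was above 1 TPM in 1 day-14 cell. From day 14 to day 17, 2 of the 8 receptor and Janus kinase genes above the filter were higher and 1 was lower, against 9.03% and 7.09% of all genes above it.

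Among signal factors outside the members, 4 of 14 were higher from day 14 to day 17 and 0 were lower (9.03% and 7.09% of all genes above the filter). Irf1, a factor induced by interferon gamma, was above 1 TPM in 18 of 21 day-14 cells, with a mean of 4.26. Among negative regulators Socs1, an inhibitor of Janus kinases, was above 1 TPM in 55 of 56 day-21 cells and was 7.52 in Gata2-high and 5.91 in Gata2-low cells.

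The list of 52 further interferon-response genes was chosen with earlier results of these data known. Of its 35 genes above the filter, 27 were higher and 2 lower from day 14 to day 17, where 9.03% and 7.09% of all genes above the filter were. In Gata2-high against Gata2-low cells 3 were higher and 14 lower, where 13% and 10.2% of all were. The filter was applied over these same cells, so nothing is read from these counts. Epsti1, Ifi27l2a and Mndal were 0.23, 0.32 and 0.04 at day 14 and 6.91, 6.98 and 5.93 at day 17. Ube2l6, the enzyme that conjugates ISG15, was 6.79 in Gata2-high and 2.34 in Gata2-low cells, where Isg15 itself was 4.45 and 7.05. Ifitm1 and Ifitm3 were the 2 genes counted as lower at day 17. Of 7 NF-kB response genes above the filter, 0 were higher and 3 lower from day 14 to day 17 (9.03% and 7.09% of all), and Ccl3, a chemokine, went from 6.65 to 1.20.

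**Figure D5:**
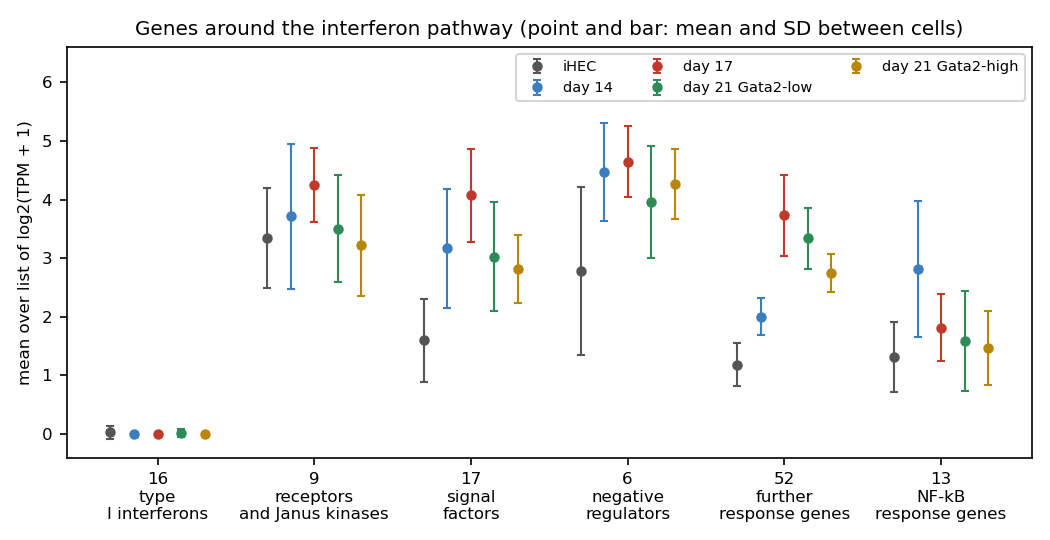
Points give the mean over each list of log2(TPM + 1) in each group and bars the SD between cells. The further interferon-response genes peak at day 17 at 3.73, the type I interferons stay near 0 in every group, and the NF-kB response genes are highest at day 14 at 2.81.

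Over all 160 cells the genes outside the list whose level ran most like the member mean were Epsti1 (Pearson r 0.90, Spearman rho 0.86), Bst1 (0.84 and 0.76), Tgtp2 (0.83 and 0.77), Tgtp1 (0.82 and 0.76) and Napsa (0.82 and 0.81). Il7r, Fcho1, Aldh1b1, Plac8 and Psmb9 followed, with r from 0.82 to 0.80. These values are descriptions, since the cells share their group and the group carries most of the difference. Within day 17 (n = 18) r was 0.70 for Epsti1 and 0.83 for Napsa, and within day 21 (n = 56) it was 0.66 and 0.65. Without the libraries that stand apart the day-17 values (n = 16) were 0.11 for Epsti1 and 0.49 for Napsa. Between pairs of members the median r was 0.37 within day 17, 0.19 within day 21 and -0.02 within iHECs. Without the libraries that stand apart the day-17 median was 0.18, so the higher value rested on those libraries.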

How the data were processed

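Single-cell RNA-Seq was measured in 160 cells. The authors amplified cDNA with Discover-sc WTA Kit V2, aligned reads to mm10 with HISAT2 2.1.0 and estimated TPM with StringTie 1.3.4, per the labels and methods. The deposited TPM values summed to between 988686 and 999108 per cell, so that the depth in reads is unknown and intervals cover counting of cells only. Values were used as log2(TPM + 1) with Python 3.11.15, pandas 2.3.3, numpy 2.4.6 and scipy 1.17.1, and groups came from the sample titles. The study's own filter, under which a gene must pass 1 TPM in over 30 of the cells, set which genes entered the counts, and a gene counted as higher or lower at 1 or more on the log2 scale beyond the median difference. Shares have exact Clopper-Pearson 95% intervals, and where no cell was above 1 TPM a limit of 3 cells is given. No test was run, since each group is 1 sample. The step that takes differences and counts genes was checked on simulated data.

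The members and lists were chosen with earlier results of these data known. All members are described by role, as are the 10 most similar other genes by name. The plan was to name the 5 largest and 5 smallest differences of each comparison, which was not kept for every comparison. Genes of the other lists named are ligands, receptors or genes above 1 TPM in 50% or more of the cells of a group, and the cell type markers named outside this rule were chosen after their values were seen. Positions come from GENCODE M21 and promoters from RefSeq (GRCm38.p6). Protein sequences were not used here.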

Additional observations from a re-analysis of the deposited data

How the results depend on the processing

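Depth in reads is unknown, groups are single samples, and day 17 holds 18 cells. The values recomputed were the member mean differences, the counts of higher and lower members and the median number of members above 1 TPM. The settings were other pseudocounts, size factors, filters, limits, medians over cells, and cells or close paralogs left out. Values of single genes, counts of the other lists and promoter shares were not recomputed in this way. Merging near-identical pairs and leaving out libraries that stand apart were chosen after seeing the data. Of 134 recomputed values 111 stayed within 1 SD between cells or 1.5 times the count, 23 moved further and no mean difference changed sign. With a pseudocount of 0.1 the mean difference was 0.84 from iHEC to day 14 and 5.26 from day 14 to day 17, and with one of 10 the latter was 1.91. Some values within 1 SD also moved by over 1.5 times. For day-14 cells against iHECs these were 0.015 with a pseudocount of 10 and 0.098 without members that have a close paralog. For day-21 against day-17 cells they were -0.74 with a pseudocount of 10 and -2.32 with one of 0.1, and for Gata2-high against Gata2-low cells -0.79 with one of 10. The first comparison, taken relative to all genes, turned from -0.61 to 0.32 with no filter, as the median over all genes is then 0. With single cells left out in turn the mean difference ran from 0.29 to 0.35, from 3.51 to 3.77, from -1.68 to -1.42 and from -1.41 to -1.30 in the 4 comparisons.

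From iHEC to day 14, higher members numbered 0 with a pseudocount of 10, 7 with no filter, 7 without the median taken off and 1 at a limit of 2, and lower members 16 with a pseudocount of 0.1, 2 with one of 10, 3 with no filter, 3 without the median taken off, 3 at a limit of 2 and 25 by medians over cells. From day 17 to day 21, higher members numbered 2 with a pseudocount of 0.1 and 1 by medians, and lower members 7 with a pseudocount of 10, 29 with no filter and 5 at a limit of 2. Between Gata2-high and Gata2-low cells, 1 was higher by medians, and 13 were lower with a pseudocount of 10 and 11 at a limit of 2. A median day-14 cell had 17 members above 0 TPM and 7 above 10 TPM. No paired analysis was possible because no test was run. The cause of these moves was not tested.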
